A study of Homo sapiens with 2 samples.

Results

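The genes described are the nuclear-encoded subunits and assembly factors of the mitochondrial respiratory chain, chosen by symbol (the prefixes NDUF, SDHA to SDHD, SDHAF, UQCR, UQCC, COX4 to COX8 and ATP5). The rule took 108 of the 19927 genes in the count table. Of these, 84 are subunits, 18 are assembly factors, and 6 are other genes, namely the supercomplex factor COX7A2L, the inhibitor ATP5IF1, and the copies and read-through genes UQCRHL, ATP5MGL, NDUFC2-KCTD14 and ATP5MF-PTCD1. The rule leaves out CYC1 of complex III, the carrier CYCS and the assembly factors that carry other names. Among those listed here, these are all factors of complexes IV and V, 11 of complex I and 3 of complex III.

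Poly(A)-selected RNA was sequenced from Huh7, an established human hepatocellular carcinoma cell line. The treated culture was kept for 48 h in medium with homochlorcyclizine dihydrochloride (HD), an antihistamine, and the control culture for 48 h in medium with DMSO, its solvent. The sources used here give no dose of HD. Each group is 1 library, 40791119 counts for HD and 38133894 counts for DMSO, so no test between the groups was possible and no difference below has a replicate check.

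The respiratory chain passes electrons from NADH (complex I) and succinate (complex II) through complex III to oxygen at complex IV. Complexes I, III and IV pump protons across the inner mitochondrial membrane, and complex V, the ATP synthase, makes ATP as the protons return. Complexes I, III, IV and V combine subunits encoded in the nucleus with subunits encoded in mitochondrial DNA, while complex II is wholly nuclear. Assembly factors help to build a complex but are not part of the finished enzyme. Hepatocytes are rich in mitochondria, and hepatoma lines keep a working chain beside active glycolysis.

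Levels are given as CPM, the count of a gene scaled to the size of its library, after TMM scaling of library sizes. A ratio is the HD level over the DMSO level, with a 95% counting interval (Clopper-Pearson) that covers counting error only. A total of 12353 genes had a mean of at least 1 CPM and are called tested genes. Among the members, 99 passed this filter and 9 did not. A gene was counted as at least 2-fold or 1.5-fold lower or higher when its ratio reached that size and its interval excluded 1. All 10 hepatocyte markers examined were detected, and albumin was at 5059 CPM in the HD library and 5244 CPM in the DMSO library. Among markers of other cell types, 2 of 5 leukocyte genes passed the filter (LYZ, 527 CPM in the HD library and 446 CPM in the DMSO library, and CD68, 17.0 and 13.9 CPM), while PTPRC had 6 counts in the HD library and 2 in the DMSO library. Of 4 endothelial genes, PECAM1 passed, at 5.63 CPM in the HD library and 11.7 CPM in the DMSO library (ratio 0.482), and KDR had 0 counts in both. Of 5 fibroblast genes, COL1A1 (8.92 CPM in the HD library and 8.40 CPM in the DMSO library) and PDGFRB (58 and 36 counts) passed, COL3A1 had 5 counts in the HD library and 43 in the DMSO library, and COL1A2 had 0 in both. The part of these genes in the results was not tested.

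Most respiratory chain mRNAs were moderately lower in the HD library, and few were changed by as much as 2-fold. Of the 99 tested members, 90 had a ratio below 1 (90.9%, against 51.1% of all tested genes). For 87 of these the interval excluded 1 (background 40.0%). Above 1 with an interval that excluded 1 were 4 members, COX5A, NDUFC2, COX7A2L and NDUFA4L2 (background 37.8%). The median log2 ratio was -0.37 over the members, a ratio of 0.772, against -0.01 over all tested genes. At least 1.5-fold lower were 24 members (24.2%, against 14.1% of all tested genes), and 1 member was at least 1.5-fold higher (background 14.1%). At least 2-fold lower were 2 members, ATP5MC1 and UQCC3 (2.02%, against 5.10% of all tested genes), a share below the background. At least 2-fold higher was 1 member, NDUFA4L2 (background 5.81%). All members together took 0.859% of the counts in the HD library and 1.14% in the DMSO library. In bulk RNA, fewer cells carrying a transcript and less transcript per cell cannot be told apart.

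Length moved with this result. The members had a median length of 996 bases, as implied by the deposited counts and FPKM, against 3280 bases over all tested genes. Across the 12353 tested genes, which are not independent and share the same libraries, the log2 ratio had a Spearman correlation of 0.14 with length, so shorter genes tended to lower ratios. Across the 99 members the correlation with length was 0.01. With the trend on length over all tested genes removed, the median of the members was -0.23 and the number of subunits at least 1.5-fold lower was 10, against 20 without this step. Below a ratio of 1 were then 64 of 78 subunits, against 72. The part of length in the result was not tested beyond this.

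The complexes differed in their median ratio. The subunits of complex II had a median log2 ratio of -0.63 (n = 4 genes), those of complex III -0.59 (n = 8), those of complex V -0.51 (n = 17), those of complex I -0.37 (n = 37) and those of complex IV -0.18 (n = 12). With the trend on length removed, the median was -0.22 for complex I and -0.038 for complex IV, close to 0. The 29 tested subunits of complexes II, III and V were all below a ratio of 1, with intervals that excluded 1, against 40.0% of all tested genes. Of these, 13 were at least 1.5-fold lower (44.8%, against 14.1% of all tested genes). These are the complexes with the lowest medians in the same data, so the pooled shares are a description. Complex IV had 9 of 12 subunits below 1 (75%, against 51.1% of all tested genes), and 1 of 12 was at least 1.5-fold lower (8.33%, under the background of 14.1%). Complex IV had the median nearest to 0 of the 5 complexes under each of the 9 alternatives tried for these medians. Complex II had the lowest median under 8 of them. Complex III had it under the removal of the trend on length, at -0.51 for both to 2 decimals. Scaling by totals or DESeq2 size factors shifts all genes nearly alike, so it could hardly change this order. The filters left the medians of complexes I, II, III and V as they were, and a prior count of 5 moved medians little. Without members whose exons overlap another gene, complex II had 2 genes left. Genes are not replicates of a condition, so the order of the complexes describes these libraries.

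**Figure D1:**
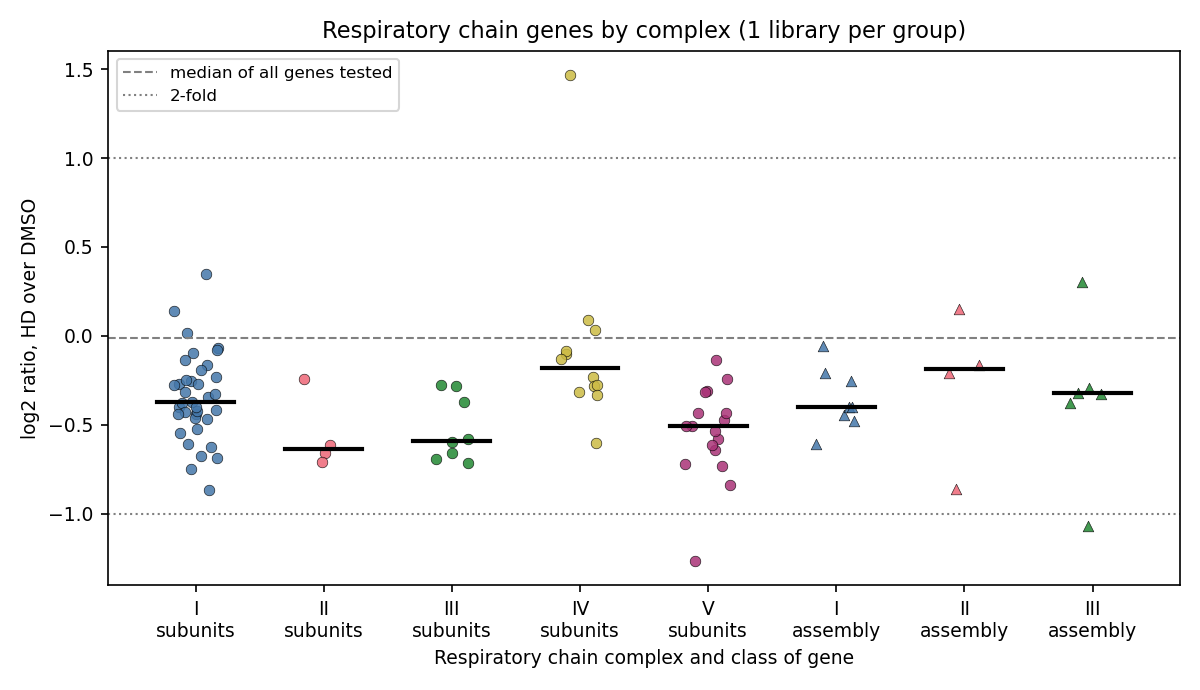
Each point is 1 tested gene, placed by its log2 ratio of HD over DMSO (vertical axis) within its complex, with circles for subunits, triangles for assembly factors, thick bars for medians, a dashed line for the median of all tested genes and dotted lines for 2-fold. The bars lie at -0.63 for complex II subunits and at -0.18 for complex IV subunits, and the point above the upper dotted line is NDUFA4L2.

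The subunits of each complex were spread around these medians. The interquartile range of the complex I subunits ran from -0.46 to -0.23 on the log2 ratio scale and that of complex V from -0.64 to -0.43. For complex IV it ran from -0.29 to -0.06. For all tested genes it ran from -0.35 to 0.33, so the members were shifted and also more tightly grouped than tested genes as a whole.

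**Figure D2:**
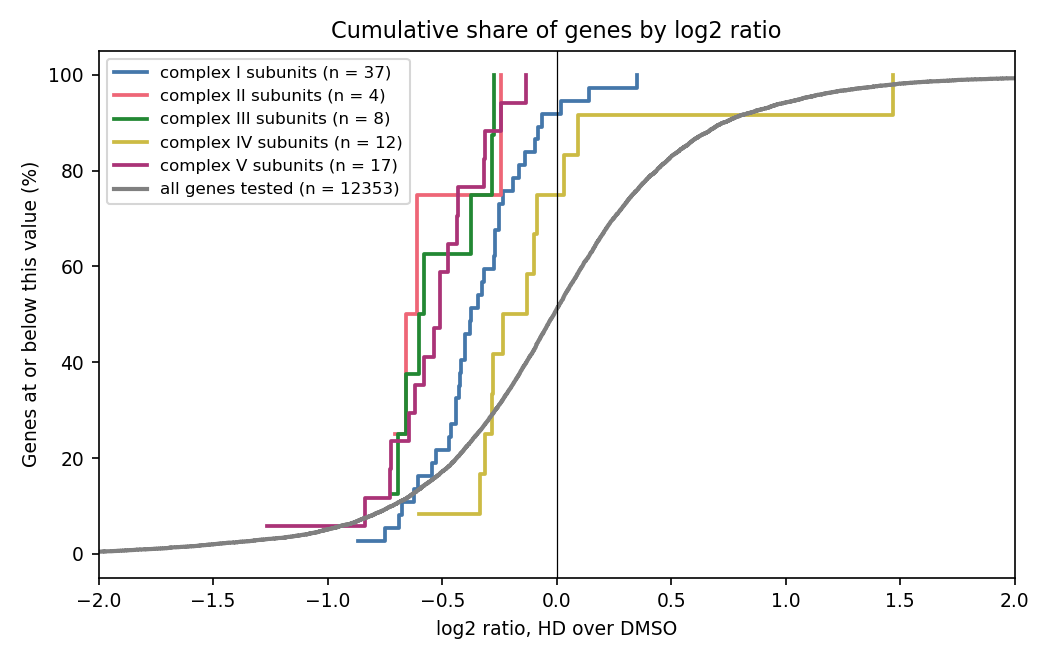
The horizontal axis is the log2 ratio of HD over DMSO and the vertical axis the percentage of genes at or below it, with 1 line for the subunits of each complex and a grey line for all 12353 tested genes. The lines of complexes II, III and V reach 100% to the left of 0, while that of complex IV lies nearest to the grey line at its middle.

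Complex I is the entry point for NADH. Its core, which binds the flavin and the iron-sulfur clusters in the peripheral arm, has 7 nuclear-encoded subunits, and the others are accessory subunits. All 7 core subunits were below a ratio of 1 (background 51.1%), with a median log2 ratio of -0.42, against -0.34 for the 30 accessory subunits. NDUFV1, which holds the flavin that accepts electrons from NADH, was at 184 CPM in the HD library and 293 CPM in the DMSO library, a ratio of 0.627 (0.609 to 0.646), the lowest of the core. NDUFS7, which carries the last iron-sulfur cluster before ubiquinone, was at 30.2 CPM in the HD library and 34.5 CPM in the DMSO library, a ratio of 0.877 (0.810 to 0.948), the highest of the core. The largest core subunit NDUFS1 was at 193 CPM in the HD library and 259 CPM in the DMSO library (ratio 0.747). NDUFV2, the partner of NDUFV1, was at 210 CPM in the HD library and 263 CPM in the DMSO library (ratio 0.798). The ratios of NDUFS3 and NDUFS8 were 0.685 and 0.788. Within the core, the intervals of NDUFV1 and NDUFS7 did not overlap. Both genes were picked as the extremes of the core in the same data, and the intervals cover counting error only.

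Accessory subunits covered a wider range. The 20 subunits of the membrane arm had a median log2 ratio of -0.35 and the 9 of the peripheral arm one of -0.28. NDUFB1, a small membrane arm subunit, was at 4.72 CPM in the HD library and 8.64 CPM in the DMSO library, a ratio of 0.546 (0.455 to 0.654), the lowest of complex I and just outside the 2-fold limit. NDUFB3, also of the membrane arm, was at 35.1 CPM in the HD library and 59.1 CPM in the DMSO library. NDUFAB1, the mitochondrial acyl carrier protein, which sits in both arms and also serves fatty acid and lipoate synthesis, had a ratio of 0.656 (0.627 to 0.687). Against the trend, NDUFC2 was at 26.8 CPM in the HD library and 21.0 CPM in the DMSO library, a ratio of 1.27 (1.16 to 1.40). It is the only complex I subunit above 1 whose interval excluded 1, and its exons overlap the read-through gene NDUFC2-KCTD14, which had 0 counts in both libraries, and THRSP. NDUFV3 (1.10, 0.993 to 1.22), NDUFA13 (1.01, 0.970 to 1.06) and NDUFS4 (0.946, 0.855 to 1.05) had intervals that included 1. NDUFB9 was close to 1 at a high level, with 209 CPM in the HD library and 219 CPM in the DMSO library.

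**Figure D3:**
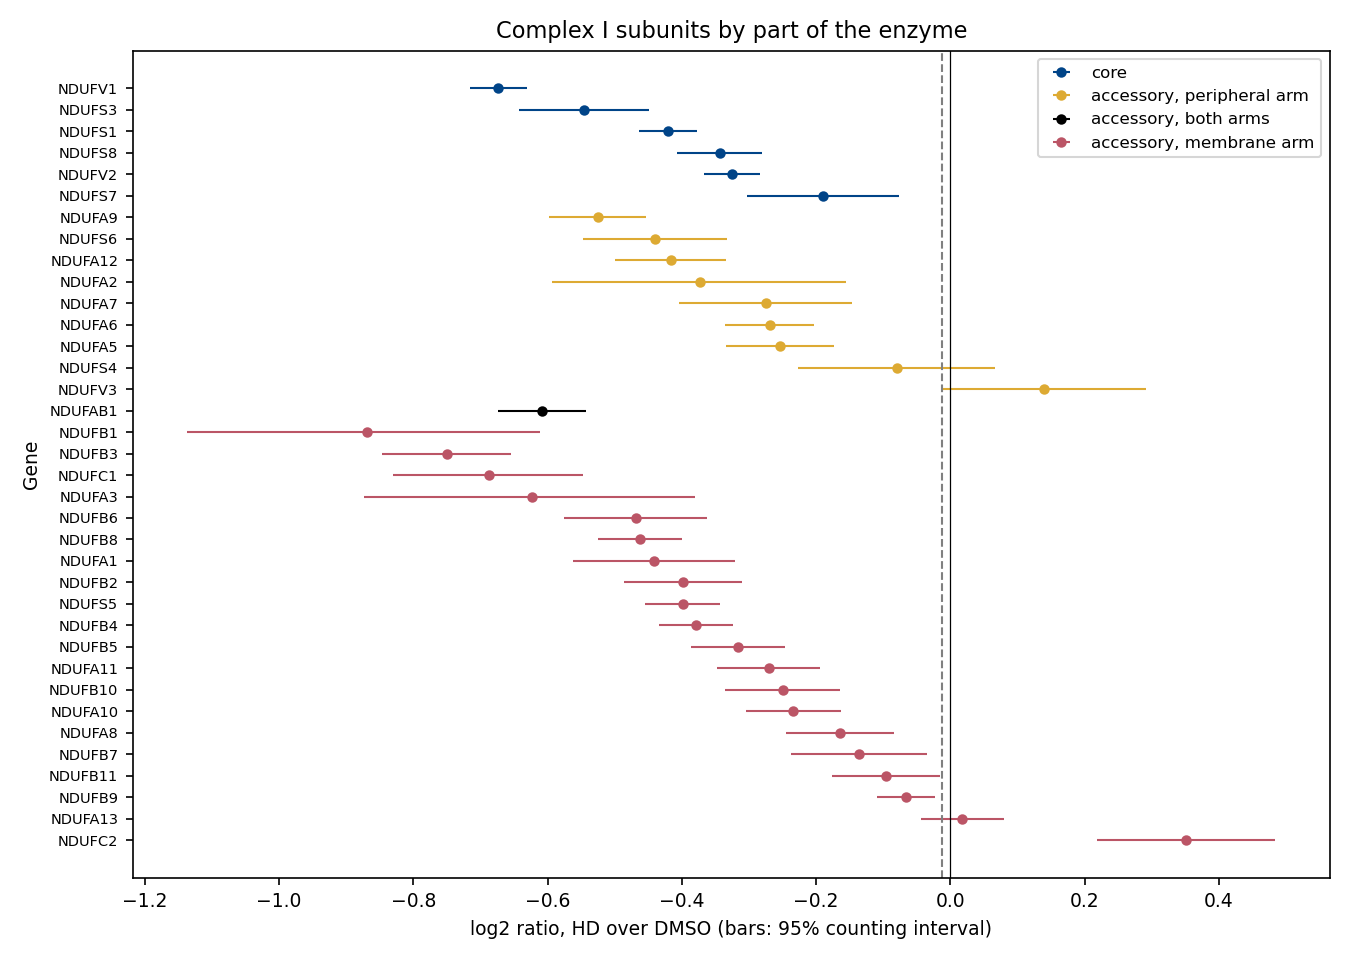
The horizontal axis is the log2 ratio of HD over DMSO with its 95% counting interval as a bar, and each row is 1 complex I subunit, grouped by its place in the enzyme, with a dashed line at the median of all tested genes. All core subunits shown lie left of 0, and NDUFC2 is the one whose bar lies wholly to the right.

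The assembly factors of complex I that match the rule, NDUFAF1 to NDUFAF8, were lower by about as much as the subunits, with a median log2 ratio of -0.40. All 8 were below 1 (background 51.1%), and NDUFAF6 had an interval that included 1. NDUFAF8, which works with NDUFAF5 in the modification of NDUFS7, was at 15.6 CPM in the HD library and 23.8 CPM in the DMSO library, a ratio of 0.655 (0.591 to 0.726), the lowest. NDUFAF6 was at 22.8 CPM in the HD library and 23.8 CPM in the DMSO library, a ratio of 0.960 (0.875 to 1.05), the highest.

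Complex II, succinate dehydrogenase, also belongs to the tricarboxylic acid cycle. It has 4 subunits, and 3 of them had closely similar ratios. SDHA, the flavoprotein that oxidises succinate, was at 86.3 CPM in the HD library and 136 CPM in the DMSO library, a ratio of 0.634 (0.607 to 0.662). SDHB, the iron-sulfur subunit (chromosome 1, 17018722 to 17054032), was at 65.8 CPM in the HD library and 107 CPM in the DMSO library, a ratio of 0.612 (0.583 to 0.643). SDHD, a membrane anchor (chromosome 11, 112086873 to 112095794), was at 81.5 CPM in the HD library and 125 CPM in the DMSO library, a ratio of 0.654 (0.626 to 0.684). These 3 intervals overlap. The other anchor, SDHC, was at 115 CPM in the HD library and 136 CPM in the DMSO library, and its ratio of 0.844 (0.811 to 0.879) lay outside the intervals of the other 3. Exons of SDHC and SDHD overlap another protein-coding gene.

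The assembly factors of complex II were spread more widely, with a median log2 ratio of -0.19. SDHAF4, which helps to join SDHA and SDHB, was at 5.82 CPM in the HD library and 10.6 CPM in the DMSO library, a ratio of 0.549 (0.466 to 0.646). SDHAF3, a factor of SDHB maturation, was at 18.1 CPM in the HD library and 16.3 CPM in the DMSO library, and its interval included 1 (1.11, 0.998 to 1.24). SDHAF1, which aids iron-sulfur cluster insertion into SDHB, and SDHAF2, which is needed for the flavin of SDHA, had ratios of 0.894 and 0.865.

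Promoters of 300 bases, from 250 before to 50 after the gene start, were taken from RefSeq on GRCh38.p14, and 84 of the 99 tested members had one. They were searched on both strands for motifs of factors known to regulate respiratory chain genes. The 10-letter NRF1 motif (nuclear respiratory factor), spelled in capitals in the ATP5F1C promoter, was in 5 member promoters (5.95%, against 2.32% of the promoters of 10270 tested genes). CCGGAAGTG (GABP and other ETS factors) was in 5 (5.95%, against 5.13%) and the YY1 motif, in capitals in the SDHB promoter, in 5 (5.95%, against 2.07%). TCAAGGTCA (estrogen-related receptors) was in the promoter of SDHD alone among the members (1.19%, against 0.156%). These motifs do not overlap each other in the promoters shown. The members with the NRF1 letters were ATP5F1C, NDUFA8, NDUFAF5, NDUFB4 and SDHD, with a median log2 ratio of -0.40, against -0.37 for the other 79. Those with the YY1 letters were NDUFA9, NDUFS4, SDHB, UQCC2 and UQCRC1, with a median of -0.53, against -0.37 for the others. The 5 with the ETS letters, ATP5MK, NDUFA13, NDUFS1, SDHAF2 and UQCRH, had a median of -0.32, against -0.38 for the others, so these differences did not all run one way. None of the 11 complex IV promoters held any of the 4 motifs (9.32% of all promoters searched held at least 1), which at this background is not a result about complex IV.

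The SDHD, SDHB, ATP5F1C and UQCRC1 promoters are shown because these members of the lower complexes carry such letters. Capitals mark the NRF1 motif and the reverse complement of the estrogen-related receptor motif in SDHD, the YY1 motif in SDHB and UQCRC1, and the NRF1 motif in ATP5F1C.
SDHD, chr11:112086623-112086922, plus strand: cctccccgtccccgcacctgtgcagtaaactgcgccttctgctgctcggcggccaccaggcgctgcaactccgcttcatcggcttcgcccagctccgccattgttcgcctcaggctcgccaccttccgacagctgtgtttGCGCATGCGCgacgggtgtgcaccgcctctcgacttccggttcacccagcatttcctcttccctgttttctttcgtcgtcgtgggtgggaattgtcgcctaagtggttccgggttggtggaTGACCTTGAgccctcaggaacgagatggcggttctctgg
SDHB, chr1:17053983-17054282, minus strand: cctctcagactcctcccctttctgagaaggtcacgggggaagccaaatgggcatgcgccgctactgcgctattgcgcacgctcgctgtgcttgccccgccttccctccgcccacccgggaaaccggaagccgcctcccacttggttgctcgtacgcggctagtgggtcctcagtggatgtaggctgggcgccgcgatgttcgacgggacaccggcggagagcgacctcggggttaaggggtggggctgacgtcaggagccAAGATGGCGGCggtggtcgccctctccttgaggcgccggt
ATP5F1C, chr10:7787927-7788226, plus strand: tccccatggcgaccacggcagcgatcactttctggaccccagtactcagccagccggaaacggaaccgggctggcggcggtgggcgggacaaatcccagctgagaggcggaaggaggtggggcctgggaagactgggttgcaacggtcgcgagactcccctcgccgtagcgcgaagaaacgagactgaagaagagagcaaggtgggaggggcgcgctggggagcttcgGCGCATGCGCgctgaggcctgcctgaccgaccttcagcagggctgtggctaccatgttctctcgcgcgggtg
UQCRC1, chr3:48609597-48609896, minus strand: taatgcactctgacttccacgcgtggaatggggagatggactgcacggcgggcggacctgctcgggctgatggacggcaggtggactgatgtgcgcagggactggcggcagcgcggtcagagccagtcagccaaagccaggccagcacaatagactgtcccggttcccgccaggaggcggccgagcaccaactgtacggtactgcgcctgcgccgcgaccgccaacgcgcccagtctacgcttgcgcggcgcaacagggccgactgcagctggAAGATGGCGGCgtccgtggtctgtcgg
The first base of the NRF1 motif lies at -110 from the start in SDHD and at -22 in ATP5F1C, and the YY1 motif begins at base 11 of the SDHB transcript and base 24 of the UQCRC1 transcript. A match of letters is no evidence of binding.

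Complex III moves electrons from ubiquinol to cytochrome c. Its nuclear subunits in the count were 3 larger proteins and 5 small ones. The larger ones had nearly equal ratios. UQCRC1 was at 187 CPM in the HD library and 279 CPM in the DMSO library, a ratio of 0.669 (0.649 to 0.689). UQCRC2, the other core protein, was at 115 CPM in the HD library and 182 CPM in the DMSO library, a ratio of 0.634 (0.611 to 0.658). UQCRFS1, the Rieske iron-sulfur protein, was at 83.3 CPM in the HD library and 126 CPM in the DMSO library, a ratio of 0.660 (0.631 to 0.690). The interval of UQCRFS1 overlaps those of both core proteins.

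The small subunits of complex III fell into a lower and a higher set, described after their values were seen. UQCR10 and UQCRQ had ratios of 0.610 (0.579 to 0.642) and 0.619 (0.584 to 0.655). UQCRH, UQCR11 and UQCRB had ratios of 0.772 (0.748 to 0.798), 0.823 (0.776 to 0.873) and 0.826 (0.796 to 0.857). UQCRH, the hinge protein, can share reads with its retrocopy UQCRHL, which had 115 counts in the HD library and 121 in the DMSO library, beside 6701 and 8143 counts for UQCRH.

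The complex III assembly factors taken by the rule were expressed at 0.983 to 50.1 CPM in the HD library and at 1.99 to 62.8 CPM in the DMSO library. Their median log2 ratio was -0.32. UQCC3 (chromosome 11, 62671673 to 62673686), which stabilises cytochrome b in assembly, had 40 counts in the HD library and 80 in the DMSO library, a ratio of 0.469 (0.313 to 0.694). It passed the 2-fold rule, its interval is wide, and its exons overlap LBHD1. UQCC5, with 100 counts in the HD library and 76 in the DMSO library, had a ratio of 1.24 (0.907 to 1.69), with an interval that included 1. UQCC1, the most abundant of the 6, was at 50.1 CPM in the HD library and 62.8 CPM in the DMSO library (ratio 0.797).

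Complex IV, cytochrome c oxidase, reduces oxygen to water. Its nuclear subunits surround a catalytic core encoded in mitochondrial DNA. COX5A and COX4I1, the subunits with the highest counts in this complex, were at about equal levels in both libraries. NDUFA4, next by mean CPM, was lower (ratio 0.804). COX4I1, the general isoform of subunit IV (chromosome 16, 85799695 to 85807068), was at 326 CPM in the HD library and 318 CPM in the DMSO library, a ratio of 1.02 (0.998 to 1.05). COX5A (chromosome 15, 74919791 to 74938073) was at 339 CPM in the HD library and 319 CPM in the DMSO library, a ratio of 1.07 (1.04 to 1.09). COX5B, a zinc-binding subunit, was at 102 CPM in the HD library and 119 CPM in the DMSO library, a ratio of 0.850 (0.815 to 0.887). The ratios of COX6C, COX6A1 and COX7A2 were 0.943, 0.932 and 0.915, and those of COX7C, COX6B1 and COX8A were 0.825, 0.821 and 0.793. COX7B, a small accessory subunit, stood apart with 66.9 CPM in the HD library and 102 CPM in the DMSO library, a ratio of 0.658 (0.627 to 0.692). Without the 4 tested complex IV subunits whose exons overlap another gene, COX4I1, COX6A1, COX8A and NDUFA4L2, the median of the other 8 was -0.26.

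Tissue-restricted isoforms of complex IV were absent or nearly so. COX4I2, the lung isoform of subunit IV, had 0 counts in both libraries. The muscle isoform COX7A1 and the testis isoforms COX7B2 and COX8C also had 0 counts in both. With 0 counts, a level of as much as 0.0737 CPM is allowed in the HD library and 0.0785 CPM in the DMSO library. The muscle isoform COX6A2 had 0 counts in the HD library and 2 in the DMSO library, and the testis isoform COX6B2 had 1 and 0. No change of isoform was detectable for these genes at this depth.

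NDUFA4L2 (chromosome 12, 57234903 to 57240762), a paralog of NDUFA4 that is known to be induced in hypoxia, was the member with the highest ratio. It had 99 counts in the HD library and 33 in the DMSO library, or 2.43 and 0.864 CPM, and a ratio of 2.82 (1.88 to 4.31). Its exons overlap SHMT2. It would fail a filter of 5 CPM. NDUFA4 itself, once assigned to complex I and now counted in complex IV, was at 185 CPM in the HD library and 230 CPM in the DMSO library, a ratio of 0.804 (0.779 to 0.829). On the FPKM scale, which divides by length, NDUFA4L2 made up 2.33% of the sum of the pair in the HD library and 0.676% in the DMSO library.

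COX7A2L (chromosome 2, 42335559 to 42368957), a relative of COX7A2 that links complexes III and IV in supercomplexes, was at 64.3 CPM in the HD library and 46.9 CPM in the DMSO library. Its ratio of 1.37 (1.29 to 1.46) was the second highest of the 99 tested members, under the 1.5-fold rule. COX7A2 was at 138 CPM in the HD library and 151 CPM in the DMSO library. The FPKM sum of COX7A2 and COX7A2L was 111 in both libraries, and the share of COX7A2L in it was 24.6% in the HD library and 17.9% in the DMSO library. This sum and share depend on the gene lengths behind the FPKM. With CPM divided instead by the median GENCODE 29 transcript length in kilobases, COX7A2 was at 327 in the HD library and 358 in the DMSO library. COX7A2L was then at 77.8 in the HD library and 56.8 in the DMSO library.

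**Figure D4:**
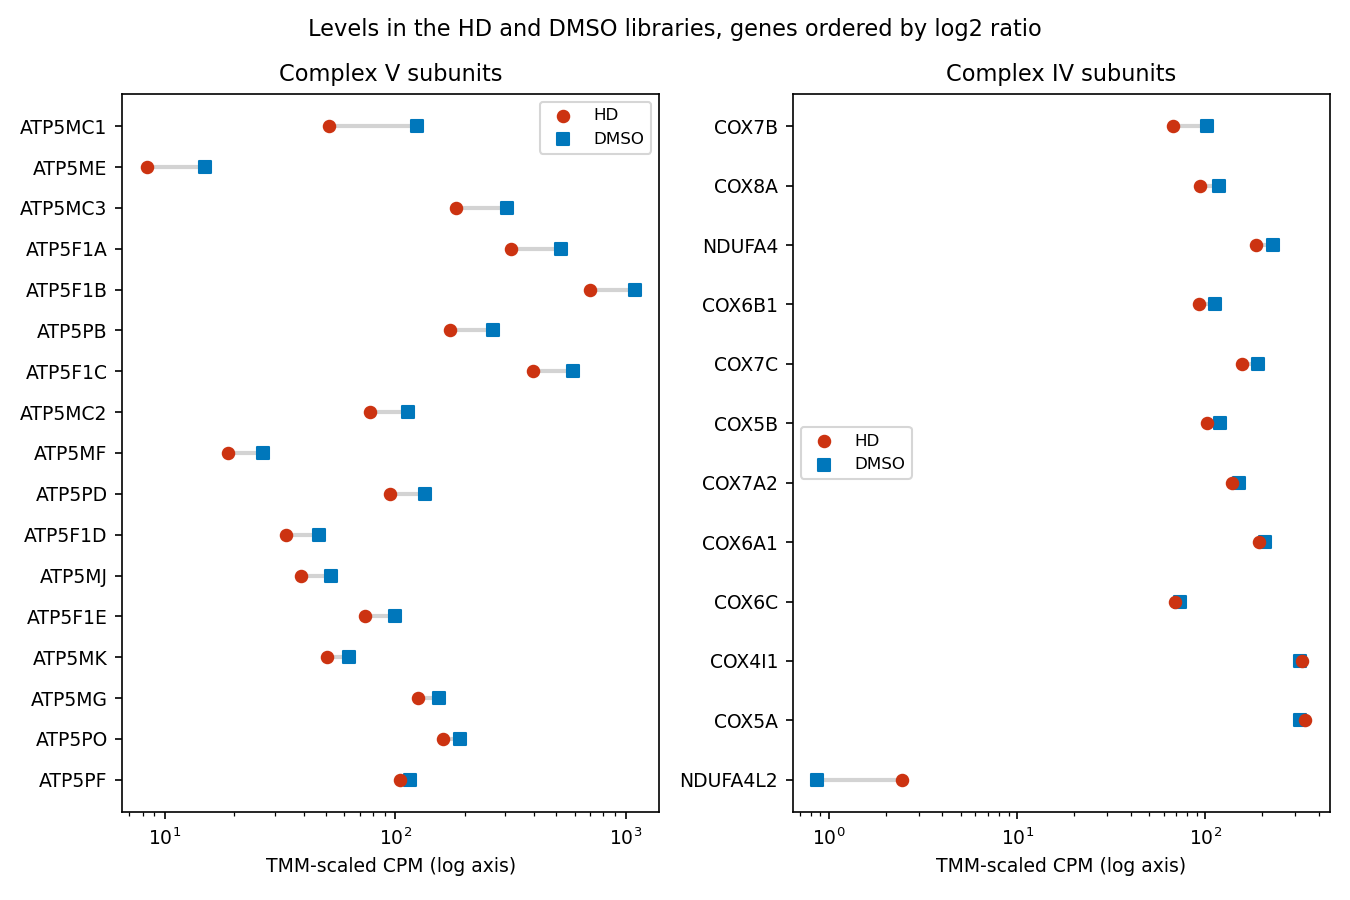
Each row is a tested subunit gene of complex V (left) or complex IV (right), with its TMM-scaled CPM on a log axis in the HD library (red circle) and the DMSO library (blue square), ordered by log2 ratio with the lowest at the top. All 17 circles of complex V lie left of their squares, while in complex IV most pairs nearly touch and the circle of NDUFA4L2 lies to the right.

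Complex V has a catalytic head and stalk (F1), a rotating ring of c subunits, a peripheral stalk and small membrane subunits. All 17 genes were below a ratio of 1 (background 51.1%). The c ring had a median log2 ratio of -0.73, the F1 part -0.58, the small membrane subunits -0.43 and the peripheral stalk -0.38. ATP5F1A and ATP5F1B, the alpha and beta subunits that form the catalytic head, were lower by similar amounts. ATP5F1A was at 317 CPM in the HD library and 523 CPM in the DMSO library, a ratio of 0.606 (0.593 to 0.620). ATP5F1B, the member with the highest CPM, was at 702 CPM in the HD library and 1096 CPM in the DMSO library, a ratio of 0.640 (0.631 to 0.650). ATP5F1C, the gamma subunit of the central stalk, was at 396 CPM in the HD library and 592 CPM in the DMSO library, a ratio of 0.669 (0.656 to 0.683). The intervals of these 3 genes do not overlap, so their order exceeds counting error, while the spread between cultures is unknown. ATP5F1D and ATP5F1E, the delta and epsilon subunits, had ratios of 0.719 and 0.741.

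The c subunit is made from 3 genes, ATP5MC1, ATP5MC2 and ATP5MC3, which are known to encode the same mature protein behind different mitochondrial import sequences. ATP5MC1 (chromosome 17, 48892787 to 48895871) was at 51.5 CPM in the HD library and 124 CPM in the DMSO library. Its ratio of 0.415 (0.394 to 0.437) was the lowest of all 99 tested members. ATP5MC3 was at 184 CPM in the HD library and 305 CPM in the DMSO library, a ratio of 0.603 (0.586 to 0.621). ATP5MC2 was at 78.0 CPM in the HD library and 113 CPM in the DMSO library, a ratio of 0.689 (0.658 to 0.721). The 3 intervals do not overlap. On the FPKM scale the genes summed to 245 in the HD library and 450 in the DMSO library, a ratio of 0.543. ATP5MC1 gave 34.4% of that sum in the HD library and 45.1% in the DMSO library, ATP5MC2 39.4% and 31.2%, and ATP5MC3 26.2% and 23.7%. By FPKM the highest of the 3 was thus ATP5MC1 in the DMSO library and ATP5MC2 in the HD library. This change of order depends on the gene lengths behind the FPKM. With CPM divided instead by the median GENCODE 29 transcript length in kilobases, the order was the same in both libraries. ATP5MC3 was then the highest (219 in the HD library and 363 in the DMSO library). ATP5MC1 (102 and 246) came next, above ATP5MC2 (96.1 and 140).

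**Figure D5:**
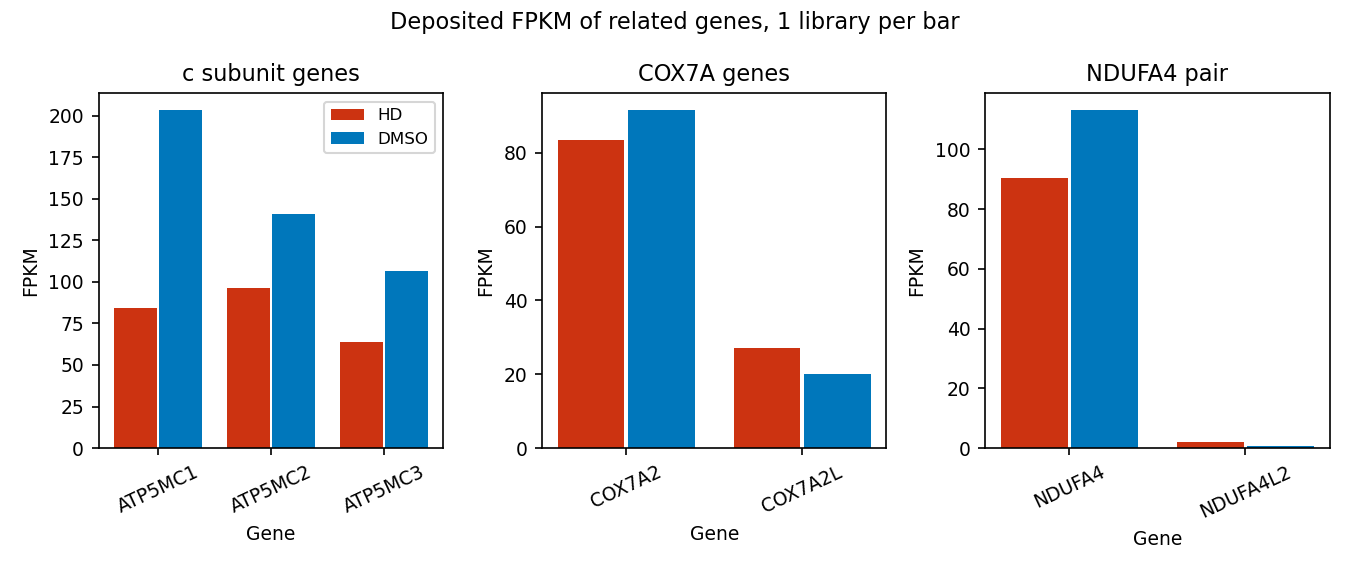
Bars give the deposited FPKM (vertical axis, from 0) of related genes in the HD library (red) and the DMSO library (blue), 1 library per bar with no error. ATP5MC1 is at 84.1 FPKM in HD and 203 in DMSO, COX7A2L is the higher in HD of its pair of bars, and NDUFA4L2 is barely visible beside NDUFA4.

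The ATP5MC1 promoter held none of the 4 motifs named above. After its letters were read, it was searched for the CCAAT box (NF-Y) and for TGACGTCA (CREB and ATF factors), and capitals mark them on either strand.
ATP5MC1, chr17:48892537-48892836, plus strand: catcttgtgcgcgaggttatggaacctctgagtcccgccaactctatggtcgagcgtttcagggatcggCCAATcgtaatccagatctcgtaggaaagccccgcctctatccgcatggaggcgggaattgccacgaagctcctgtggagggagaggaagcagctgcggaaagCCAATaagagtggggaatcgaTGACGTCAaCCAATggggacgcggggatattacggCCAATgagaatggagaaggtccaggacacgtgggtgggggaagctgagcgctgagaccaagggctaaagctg
It held 4 CCAAT boxes. At least 4 were in 1.71% of the 10270 promoters, this one included, and 3 of 84 member promoters held at least 4 (ATP5F1E, ATP5MC1 and NDUFS8). It held TGACGTCA 1 time, as did 3.27% of all promoters in at least 1 copy, and among the members ATP5ME, NDUFA10, NDUFB2 and SDHB held it too. These motifs were chosen for this sequence, so the shares are a description.

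In the peripheral stalk, which holds the head still, ATP5PB had a ratio of 0.652 (0.633 to 0.672) and ATP5PD one of 0.703, while ATP5PO and ATP5PF had ratios of 0.844 and 0.910 (0.872 to 0.949). ATP5PF, the highest of complex V, was at 105 CPM in the HD library and 116 CPM in the DMSO library. Its exons overlap GABPA and JAM2. Among the small membrane subunits, ATP5ME was at 8.33 CPM in the HD library and 14.9 CPM in the DMSO library, a ratio of 0.558 (0.487 to 0.640). ATP5MF, ATP5MJ, ATP5MK and ATP5MG had ratios of 0.702, 0.740, 0.802 and 0.805. ATP5IF1, which inhibits ATP hydrolysis by the enzyme when the membrane potential is lost, was at 52.4 CPM in the HD library and 86.0 CPM in the DMSO library, a ratio of 0.610 (0.577 to 0.644).

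Pooled over complexes, the medians of assembly factors and subunits differed little, but the 2 pools are unlike. The assembly factors taken by the rule belong to complexes I to III, and the subunits to complexes I to V. The 18 assembly factors had a median log2 ratio of -0.32 and the 78 tested subunits one of -0.39, a difference of -0.06 for subunits minus assembly factors. Of the assembly factors, 16 were below 1 (88.9%, against 51.1% of all tested genes). At least 1.5-fold lower were 3 (16.7%), and 1, UQCC3, was at least 2-fold lower (5.56%), shares near the 14.1% and 5.10% of all tested genes. Of the tested subunits, 72 were below 1 (92.3%, background 51.1%) and 20 were at least 1.5-fold lower (25.6%, background 14.1%). At least 2-fold lower was 1 subunit, ATP5MC1 (1.28%, under the background of 5.10%). Within complex I the subunit median lay 0.03 above that of its assembly factors, while in complexes II and III the differences, taken the same way, were -0.45 and -0.27. These differences hold for the factors taken by the rule. The 3 complex III assembly factors outside the rule had a median of -0.56, near the -0.59 of the complex III subunits. The 11 complex I assembly factors outside the rule had a median of -0.39. Assembly factors were less abundant per length, with a median of 10.4 FPKM in the HD library and 12.4 in the DMSO library, against 66.3 FPKM in the HD library and 92.6 in the DMSO library for subunits.

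Respiratory chain genes that the symbol rule leaves out had the same median. Of 46 listed genes, 43 were tested, 36 of them were below 1 (83.7%, background 51.1%), 9 were at least 1.5-fold lower (20.9%, background 14.1%) and none was at least 2-fold lower (background 5.10%). Their median log2 ratio was -0.37. CYC1, cytochrome c1 of complex III, was at 63.8 CPM in the HD library and 112 CPM in the DMSO library, a ratio of 0.569 (0.542 to 0.597). CYCS, cytochrome c, was at 383 CPM in the HD library and 450 CPM in the DMSO library (ratio 0.851). The lowest was FOXRED1, a complex I assembly factor, at 29.3 CPM in the HD library and 57.8 CPM in the DMSO library, a ratio of 0.507 (0.472 to 0.544). ATPAF1, which assembles the F1 part of complex V, had a ratio of 0.547 (0.517 to 0.579). The 23 tested assembly factors of complex IV had a median of -0.35, against -0.18 for its subunits. Their interquartile ranges overlap (-0.52 to -0.06 for the factors and -0.29 to -0.06 for the subunits). Of the 23 factors, 18 were below 1 (78.3%, background 51.1%) and 3 were at least 1.5-fold lower (13.0%, under the background of 14.1%). SURF1, a complex IV assembly factor, was the highest of the list, with a ratio of 1.26 (1.18 to 1.35).

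Among 10 transcription regulators of respiratory chain genes, 9 were tested, 8 of these were below 1 (88.9%, background 51.1%) and 1 was at least 1.5-fold lower (11.1%, under the background of 14.1%). Their median log2 ratio was -0.32. PPARGC1B, a coactivator of mitochondrial genes, was that one, at 15.2 CPM in the HD library and 24.9 CPM in the DMSO library, a ratio of 0.610 (0.550 to 0.675). TFAM, which packages and transcribes mitochondrial DNA, had a ratio of 0.676, and NRF1 one of 0.799. GABPA was at 44.5 CPM in the HD library and 46.8 CPM in the DMSO library, and the interval of its ratio included 1. ESRRA was higher, at 80.5 CPM in the HD library and 66.9 CPM in the DMSO library, a ratio of 1.20 (1.14 to 1.27). PPARGC1A did not pass the filter, with 52 counts in the HD library and 24 in the DMSO library.

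The mitochondrially encoded partners in the same enzymes had ratios above 1, with intervals that excluded 1, for 11 of 13 genes (background 37.8%). At least 1.5-fold higher were 2 of 13, ND5 and ND6 (background 14.1%). The strand setting is not given, so the count of ND6 (ratio 1.74) may hold reads from the opposite strand, which was not tested. The 13 genes share the mitochondrial DNA and are not independent. The 7 genes of complex I ran from 1.11 for ND3 to 1.74 for ND5. For complex III, CYTB had a ratio of 1.22 (1.20 to 1.23), and for complex V, ATP6 and ATP8 had ratios of 1.12 and 1.37. In complex IV, where the nuclear subunits lay nearest to 1, COX1, COX2 and COX3 had ratios of 0.935, 1.12 and 0.973.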

How the data were processed

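The authors deposited raw counts per gene for both libraries and 1 table of FPKM values per library. The genome build was hg38, per the submitters' processing notes. The sources used here give no aligner, counting program, strand setting or annotation. FPKM ratios differed from ratios of counts scaled to totals by at most 3.13e-05%, so the deposited FPKM values are the same measurement divided by length. Library sizes were scaled with TMM factors (edgeR 4.0.16, R 4.3.3), with a prior count of 1 for log2 ratios. Ratios, intervals (scipy 1.17.1), trends (statsmodels 0.14.6) and promoter searches were run in Python 3.11.15. With 1 library per group no test and no p-value is given. PCR copies are not independent molecules, so intervals and floors are limited to counting error. A floor is 3 counts. Counts simulated with known folds were used to test the size rule. They were drawn with counting error only and no spread between cultures, the error that the intervals assume, so they say nothing about that spread. Gene positions come from RefSeq (GRCh38.p14), matched by symbol or synonym for 108 members, and exon overlaps from GENCODE 29.

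The members, lists and rules were chosen with earlier results of these data known. Members named in full are those past 2-fold, the highest and lowest subunit and assembly factor of each complex, core subunits, isoform pairs and those nearest to the 2-fold limit. Of these, 1 enters the counts and medians, but its own values are not reported here. Any others were chosen after their values were seen. Alternatives were scaling by totals or DESeq2 1.42.0 size factors, no filter or 5 CPM, a prior count of 5, removal of lowess trends on length or level (fraction 0.3), and leaving out members with shared reads. Leaving out members with overlapping exons (37 of the tested ones) was added after the data were seen.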

Additional observations from a re-analysis of the deposited data

How the results depend on the processing

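No median of a list changed sign under the alternatives run. Single members were recomputed for 43 named genes under 4 alternatives, and none of these values changed sign. The alternatives were scaling by totals, DESeq2 size factors, a prior count of 5 and deposited FPKM. Scaling and FPKM shift all genes by nearly the same small amount. They could therefore hardly change a sign except for a gene very near a ratio of 1. Their single values with the trend on length removed are not given, but the number of subunits below a ratio of 1 was 64 with that trend removed, against 72, so single subunits near 1 depend on it. Removing the trend on length moved medians toward 0. They became -0.23 for all members, -0.25 for subunits, -0.22 for complex I, -0.51 for complex II, -0.51 for complex III, -0.038 for complex IV and -0.35 for complex V, and 10 subunits were at least 1.5-fold lower. A filter of 5 CPM left 1 member at least 2-fold lower and 0 at least 2-fold higher, since UQCC3 and NDUFA4L2 fall below it. Without members whose exons overlap another gene, the complex IV median was -0.26. All 172 values of 43 named members stayed within their counting intervals. The other 102 values of lists and counts stayed within 1.5 times the count or, for medians, within a band. The band runs from the median lower bound to the median upper bound of the members, and is not a counting interval of the median. For assembly factors it was wide (-0.51 to -0.14). It held their median of -0.22 with the trend on length removed, against -0.32 without this step. No paired analysis was possible because each group has 1 library and no test. Replicates could not be left out for the same reason. Depth limits UQCC3, UQCC5 and NDUFA4L2, whose intervals are wide, and the isoforms with 0 counts.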

Other observations

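The gene lengths behind the deposited FPKM, computed from them and the counts, were far from typical transcripts for some members, which bears on FPKM levels between genes but not on ratios between libraries. Over the 99 tested members, 25 had an implied length more than 2 times the median length of their protein-coding transcripts in GENCODE 29. The implied length was 8594 bases for UQCRB, against a median transcript of 645 bases, and 5844 bases for ATP5F1A, against 910 bases. ATP5F1A was therefore listed at 54.1 FPKM in the HD library and 89.7 in the DMSO library, while ATP5F1B, its partner at equal number in the enzyme and with an implied length of 1759 bases, was listed at 398 FPKM in the HD library and 624 in the DMSO library. For the c subunit genes the implied lengths were 611 bases for ATP5MC1, 807 for ATP5MC2 and 2868 for ATP5MC3, so the low FPKM share of ATP5MC3 depends on its length, and by CPM it was the highest of the 3 in both libraries.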
